A study of Homo sapiens with 6 samples.

Results

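The genes described here are 10 of the 58735 rows of a table of read counts per gene: 5 members of the CCN family (CTGF, CYR61, NOV, WISP1 and WISP2) and 5 other genes commonly listed as targets of the transcriptional coactivators YAP and TAZ (ANKRD1, AXL, CRIM1, NT5E and CCDC80). Each was taken as the row whose symbol equals its name. The table uses the older CCN names, and the current names are CCN2 for CTGF, CCN1 for CYR61, CCN3 for NOV, CCN4 for WISP1 and CCN5 for WISP2. RD is an established human cell line from an embryonal rhabdomyosarcoma, a childhood tumour whose cells resemble immature skeletal muscle. Poly(A)-enriched RNA was sequenced from RD cells transduced with lentivirus that expressed scrambled shRNA (control, n = 3) or TAK1 shRNA (n = 3), and the question put to the 10 genes is whether their RNA differed between the groups. TAK1, encoded by MAP3K7, is a kinase that relays TGF-beta and cytokine signals to the MAPK and NF-kB pathways. All libraries come from this 1 line and all knockdown libraries from 1 shRNA sequence, so the loss of TAK1 and any other effect of that construct cannot be told apart. The labels do not say that the replicates were separate cultures, so the p-values measure the spread between these samples, which may be partly technical.

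YAP1 and WWTR1 (the gene of TAZ) encode coactivators that have no DNA-binding domain of their own and act mainly through the TEAD transcription factors. The Hippo kinases MST1 and MST2 act through LATS1 and LATS2, which phosphorylate YAP and TAZ and keep them out of the nucleus. Phosphorylation of YAP1 also leads to its degradation. The activity of YAP and TAZ is therefore set largely by localization and breakdown of the proteins rather than by RNA level. CTGF, CYR61 and ANKRD1 are the genes most often measured to read that activity, and several of them also respond to TGF-beta and to the actin-regulated factors SRF and MRTF. In skeletal muscle, YAP is known for promoting the expansion of myoblasts, and CTGF is known for its part in fibrosis.

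The TEAD factors bind the word GGAATG or its reverse complement CATTCC. RefSeq promoter sequences of GRCh38.p14 were at hand for 5 of the 10 genes, namely CTGF, ANKRD1, AXL, NT5E and CCDC80, each covering 250 bases before and 50 bases after an annotated start. Those of CTGF, which was called changed below, and of ANKRD1 and AXL, which were not, are shown so that the word can be read directly. A gene that was not called may still have changed. The capitals mark the TEAD word. The sequences run 5′ to 3′ on the strand of the gene and end before the start of transcription in CTGF and ANKRD1, at chr6:131951373-131951622 on the minus strand and chr10:90921088-90921337 on the minus strand. For AXL, the bases around the match upstream of its second start are given, at chr19:41226533-41226558 on the plus strand.
CTGF: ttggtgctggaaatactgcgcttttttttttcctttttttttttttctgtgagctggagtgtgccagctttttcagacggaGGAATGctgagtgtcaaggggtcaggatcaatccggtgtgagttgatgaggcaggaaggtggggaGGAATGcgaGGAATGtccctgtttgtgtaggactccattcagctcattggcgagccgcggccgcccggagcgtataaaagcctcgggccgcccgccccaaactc
ANKRD1: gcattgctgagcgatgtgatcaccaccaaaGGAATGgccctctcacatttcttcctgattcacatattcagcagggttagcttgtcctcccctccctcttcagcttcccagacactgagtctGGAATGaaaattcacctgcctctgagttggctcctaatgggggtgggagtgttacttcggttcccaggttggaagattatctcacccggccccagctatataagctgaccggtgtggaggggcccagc
AXL: gactttgcacCATTCCactccctccg

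CTGF held the word 3 times on its own strand, with first bases at -169, -104 and -95 relative to the start. The last pair of copies began 9 bases apart and left 3 bases between them. ANKRD1 held it 2 times on its own strand, at -220 and -128, and also 1 AP-1 word (TGANTCA, searched on both strands) at -195. AXL held 1 copy on the opposite strand at -212 of its second start and none at its first. NT5E and CCDC80 held none in this window. A match is a description of letters, not a binding site. The word was present for 3 of the 5 genes (60.0%) and for 16.7% of the 27305 genes with a promoter in the table. Counted by promoter, 14.0% of 35116 promoters held it at least once, 1.37% at least 2 times and 0.128% at least 3 times, and 6 promoters held a pair on the same strand that began 9 bases apart. The AP-1 word was present for 1 of the 5 genes and for 9.37% of all genes, and the CArG box of SRF for 0 of the 5 and 1.60% of all genes.

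**Figure D1:**
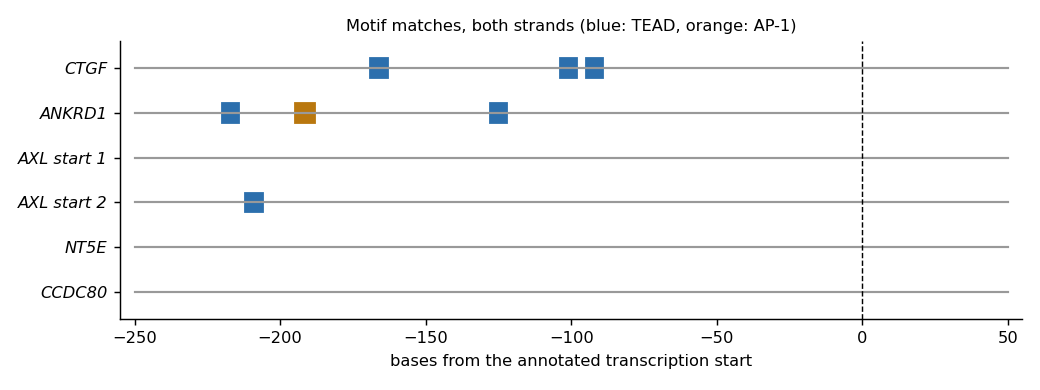
Positions of the TEAD (blue) and AP-1 (orange) words in the RefSeq promoters of 5 of the 10 genes, plotted as distance from the annotated start in bases, with both strands on 1 line. CTGF carries 3 TEAD words, ANKRD1 2 and the second AXL promoter 1, while NT5E and CCDC80 carry none.

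CPM are read counts scaled to a common library total that is adjusted by the trimmed mean of M-values (TMM). The targeted gene, MAP3K7, was at 77.9, 76.5 and 77.6 CPM in the control replicates. In the TAK1 shRNA replicates it was at 30.5, 33.6 and 29.9 CPM. Its log2 fold change was -1.30 (SE 0.062, adjusted p = 4.45e-14). Total counts ran from 28839898 to 34469323 per library. The cells carried their labelled type: 5 of the 6 skeletal muscle markers passed the filter on low counts and their summed level was 1163 to 1177 CPM in the control and 1271 to 1378 CPM in the knockdown, with MYF5 at 0. MYOD1 and MYOG, regulators of muscle commitment and differentiation, rose by 0.37 and 0.27 on the log2 scale. Endothelial and immune markers (0 of 4 tested for each) summed to at most 0.445 CPM in any library, with CDH5, KDR and CD3E at 0. The 4 epithelial markers summed to 56.4 to 62.8 CPM in the control and 27.7 to 31.1 CPM in the knockdown, nearly all of it KRT18, with CDH1 at 0. The 4 fibroblast markers summed to 6071 to 6367 and 7396 to 8082 CPM, nearly all of it COL3A1, and PDGFRA was at 0.352 ± 0.0604 CPM (SD, n = 3) in the control. The part of these shifts in the results that follow was not tested.

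Of the 10 genes, 8 had enough counts to be tested and WISP1 and WISP2 did not. CTGF, CYR61, CRIM1 and NT5E were lower in TAK1 knockdown RD cells, CCDC80 was higher, and NOV, ANKRD1 and AXL did not pass the test. A gene was called changed at an adjusted p under 0.05 in edgeR's quasi-likelihood test and a change of 0.25 or more, up or down, on the log2 scale. By the same rule 11.3% of the 15935 genes tested were lower and 11.8% were higher. The median log2 fold change was -0.54 over the 8 genes and 0.018 over all genes tested. The 10 genes and the gene lists used below were chosen with earlier results of these data known. Their shares and medians are therefore descriptions, and an excess over all genes was not tested. In bulk RNA, fewer cells of a type and less RNA per cell cannot be told apart. All levels below are CPM after scaling by TMM unless stated otherwise, with mean ± SD over 3 libraries.

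CTGF encodes a secreted, heparin-binding matrix protein that binds integrins and promotes matrix production. Its gene (ENSG00000118523.6) occupies chromosome 6 from 131948176 to 131951372, minus strand. The level of CTGF was 42.2, 40.0 and 41.6 CPM in the 3 control replicates and 22.2, 25.1 and 24.4 CPM in the 3 TAK1 shRNA replicates. Every knockdown library was below every control library, by a gap far wider than the range within either group. The means were 41.3 ± 1.14 and 23.9 ± 1.53 CPM, so the knockdown level was 0.580 times the control level (log2 fold change -0.79, SE 0.070, adjusted p = 2.93e-09). The log2 fold change stayed between -0.83 and -0.74 over 14 alternative analyses. An antisense long noncoding RNA, LINC01013, covers 278 of the exonic bases of CTGF (11.9%). That RNA itself was counted 0, 4 and 1 times in the control and 0, 0 and 1 times in the knockdown.

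CYR61 encodes another CCN protein, a matrix-bound inducer of cell adhesion and migration. Its gene (ENSG00000142871.18) occupies chromosome 1 from 85580761 to 85584589, plus strand. The level of CYR61 was 56.6, 52.0 and 58.1 CPM in the control replicates and 39.9, 39.4 and 34.4 CPM in the knockdown replicates. The groups did not overlap, and the lowest library was TAK1 shRNA replicate 3, whereas for CTGF it was replicate 1. The mean fell from 55.6 ± 3.19 to 37.9 ± 3.06 CPM (log2 fold change -0.55, SE 0.068, adjusted p = 5.82e-07), to 0.682 times the control level.

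The fall of CTGF and that of CYR61 were compared within libraries through the log2 ratio of their CPM, a quantity that cancels the scaling of a library. The ratio was -0.43, -0.38 and -0.48 in the control and -0.85, -0.65 and -0.50 in the knockdown. It was lower in every knockdown library, but TAK1 shRNA replicate 3 lay next to control replicate 3. The difference of the means was -0.23, with an exact two-sided permutation p = 0.1, the smallest that this test can give with 3 samples against 3 whatever the size of the difference, so it cannot pass 0.05 here. Leaving out 1 library moved the difference between -0.32 and -0.14. Set against YAP1 in the same way, the ratio of CTGF fell by 0.47 and that of CYR61 fell by 0.24, again with exact p = 0.1 for each. Leaving out 1 library moved the first of these differences between -0.53 and -0.42 and the second between -0.29 and -0.14, the last value without TAK1 shRNA replicate 3. All 3 ratios gave an adjusted p of 0.1, and none overlapped between the groups.

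**Figure D2:**
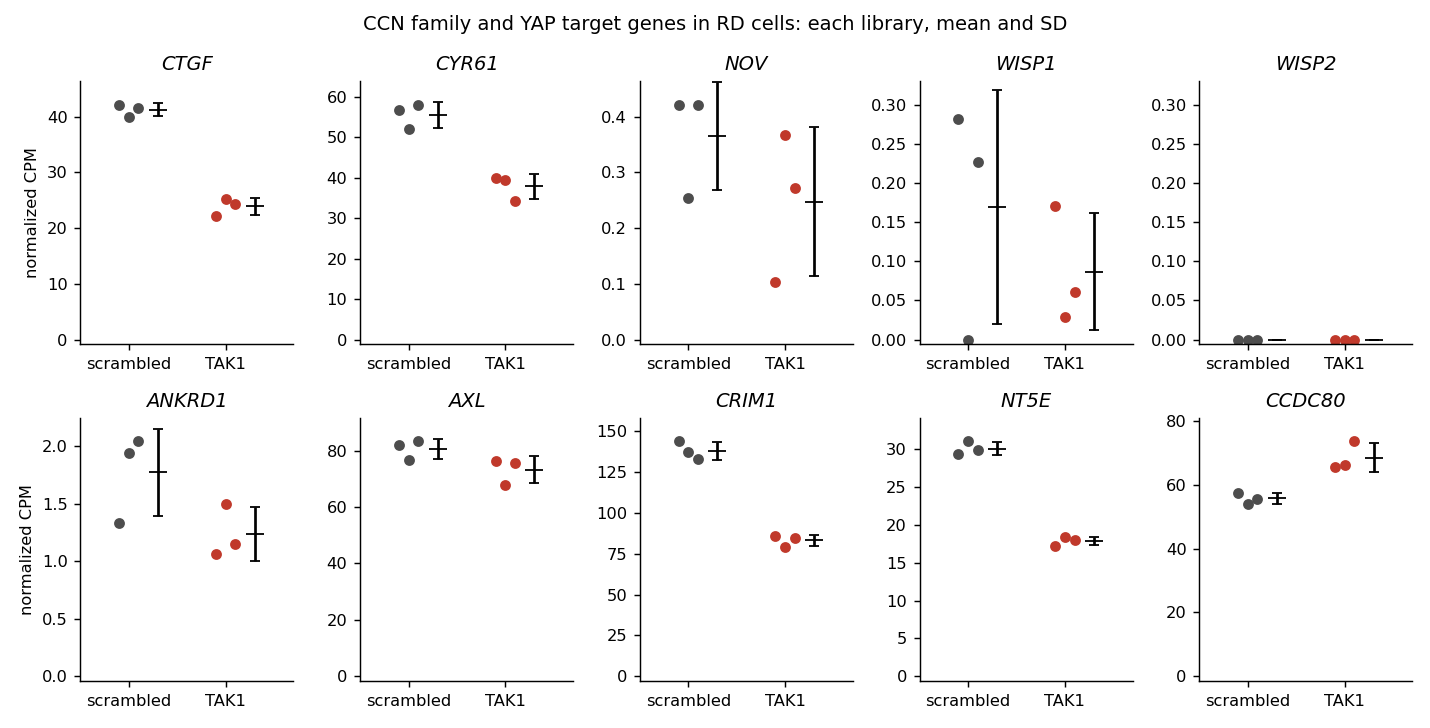
Level of each gene in each library, in CPM, with a point per library, control (grey) beside TAK1 shRNA (red), and the group mean and SD drawn as bars. CTGF, CYR61, CRIM1 and NT5E separate downward, CCDC80 separates upward, AXL separates by a narrow margin, NOV, WISP1 and ANKRD1 overlap, and WISP2 is at 0.

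The other CCN genes were scarce in RD cells. NOV, a CCN protein known for restraining proliferation, was counted 12, 8 and 13 times in the control libraries and 3, 13 and 9 times in the knockdown libraries. The groups overlapped, and the highest knockdown count equalled the highest control count. Its log2 fold change was -0.52 with a 95% interval from -1.63 to 0.60 (SE 0.54, adjusted p = 0.508), an interval wide enough to hold the value of CTGF, no change or a modest rise. Of the exonic bases of NOV, 204 (7.80%) are shared with an antisense long noncoding RNA. WISP1, a target of Wnt signalling in other cells, was counted 8, 0 and 7 times in the control and 5, 1 and 2 times in the knockdown. The summed counts were 15 and 8, a ratio per counted read of 0.513 with a counting interval from 0.188 to 1.29. WISP2, which lacks the C-terminal cystine knot of the other family members, had 0 counts in all 6 libraries. The 1-sided upper limit of 3 counts that a count of 0 allows corresponds to 0.0870 to 0.104 CPM per library. These limits are scaled by library size alone, without TMM. WISP3 (CCN6), the remaining gene of the family, was counted 4, 7 and 5 times in the control and 6, 3 and 7 times in the knockdown and was not tested. Differences in these genes were not detectable at this depth. Intervals and floors of this kind cover counting error only.

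ANKRD1 encodes a nuclear and sarcomeric ankyrin-repeat protein of striated muscle that binds titin. Its gene (ENSG00000148677.7) occupies chromosome 10 from 90912096 to 90921087, minus strand. It was counted 38, 61 and 63 times in the control and 31, 53 and 38 times in the knockdown, which gave 1.34, 1.94 and 2.04 CPM against 1.06, 1.50 and 1.15 CPM. Control replicate 1 lay inside the range of the knockdown, so the groups overlapped. The means were 1.77 ± 0.381 and 1.24 ± 0.232 CPM (log2 fold change -0.51, SE 0.27, 95% interval -1.07 to 0.05, adjusted p = 0.156). A fall of the size seen in CTGF lay inside the interval, as did no change. The summed counts of 162 and 122 gave a ratio per counted read of 0.724, with an interval from 0.568 to 0.922 that covers counting error only and leaves out the spread between libraries.

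AXL, CRIM1 and NT5E encode proteins of the cell surface. AXL, a receptor tyrosine kinase for GAS6 (ENSG00000167601.12, chromosome 19 from 41219223 to 41261766, plus strand), was at 82.2, 76.6 and 83.4 CPM in the control and 76.4, 67.9 and 75.6 CPM in the knockdown. The groups did not overlap, but the lowest control and highest knockdown libraries were nearly level. Scaled by library size alone, the groups overlapped. The lowest control was then at 14.7 and the highest knockdown at 15.1 CPM per kilobase of annotated exon. The means were 80.7 ± 3.64 and 73.3 ± 4.68 CPM, and the log2 fold change of -0.14 (SE 0.058, adjusted p = 0.0674) passed neither threshold. The adjusted p was 0.0272 without TAK1 shRNA replicate 1 and 0.0497 without replicate 3, with the change still under the fold threshold, and without replicate 2 the log2 fold change was -0.087. Non-overlap was common here: with TMM scaling the groups did not overlap for 6 of the 8 genes, AXL included, and for 43.9% of all genes tested.

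CRIM1 encodes a transmembrane protein with cysteine-rich repeats that binds BMPs (ENSG00000150938.10, chromosome 2 from 36355778 to 36551135, plus strand). Its level was 144, 137 and 133 CPM in the control and 85.8, 79.4 and 84.5 CPM in the knockdown. The mean fell from 138 ± 5.54 to 83.2 ± 3.36 CPM (log2 fold change -0.73, SE 0.051, adjusted p = 4.81e-11), to 0.603 times the control level. The groups lay far apart, and the standard error was the smallest among the 4 genes that fell.

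NT5E encodes CD73, the ectoenzyme that converts extracellular AMP to adenosine and a mesenchymal surface marker (ENSG00000135318.12, chromosome 6 from 85449584 to 85495791, plus strand). Its level was 29.3, 31.1 and 29.8 CPM in the control and 17.2, 18.4 and 18.0 CPM in the knockdown. Within each group the 3 libraries lay close together, and the groups did not overlap. The mean fell from 30.1 ± 0.885 to 17.9 ± 0.579 CPM (log2 fold change -0.75, SE 0.074, adjusted p = 1.83e-08), to 0.594 times the control level. The intervals of CTGF, CRIM1 and NT5E overlapped broadly, from -0.93 to -0.64, from -0.84 to -0.62 and from -0.90 to -0.60.

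CCDC80 encodes a secreted protein of the extracellular matrix (ENSG00000091986.16, chromosome 3 from 112596797 to 112649530, minus strand), and it was the only one of the 8 genes tested that was higher in the knockdown. Its level was 57.5, 54.1 and 55.7 CPM in the control and 65.6, 66.2 and 73.7 CPM in the knockdown. The groups did not overlap, and TAK1 shRNA replicate 3 stood above the other two. The mean rose from 55.8 ± 1.71 to 68.5 ± 4.49 CPM (log2 fold change 0.30, SE 0.060, adjusted p = 0.000334). Without TAK1 shRNA replicate 3 the log2 fold change was 0.23 (adjusted p = 0.00596), which is under the fold threshold, so that call rests on 1 library.

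**Figure D3:**
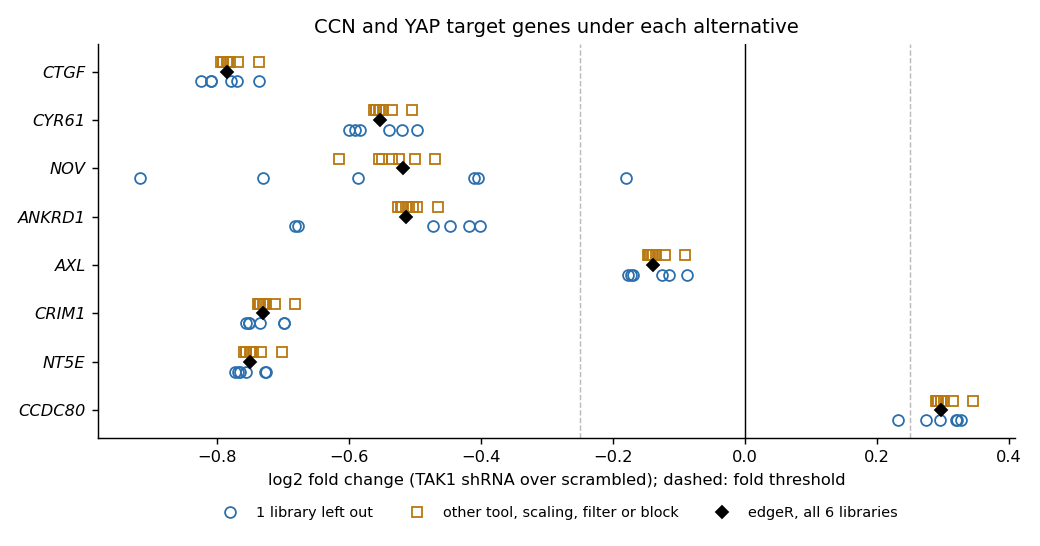
Log2 fold change of each of the 8 tested genes in the edgeR analysis of all 6 libraries (diamond), with 1 library left out (circles) and with another tool, scaling, filter or replicate block (squares). CTGF, CYR61, CRIM1 and NT5E stay below the dashed threshold of -0.25 throughout, CCDC80 crosses 0.25 once, and NOV spreads from -0.92 to -0.18.

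Per kilobase of annotated exon, the control levels of the 10 genes spanned from 19.0 ± 0.761 CPM per kb for CRIM1 to 0 for WISP2. CTGF followed at 17.6 ± 0.487, AXL at 15.7 ± 0.709 and CYR61 at 15.0 ± 0.863 CPM per kb, and AXL and CYR61 did not differ beyond their spread. NT5E stood at 6.63 ± 0.195, CCDC80 at 4.27 ± 0.131, ANKRD1 at 0.990 ± 0.213, NOV at 0.140 ± 0.037 and WISP1 at 0.0327 CPM per kb, where the range of WISP1 reached 0. In the knockdown AXL ranked first at 14.3 ± 0.912 CPM per kb, ahead of CRIM1 at 11.4 ± 0.462, CYR61 at 10.2 ± 0.827 and CTGF at 10.2 ± 0.652, with the last pair overlapping. NT5E and CCDC80 changed places, with CCDC80 at 5.24 ± 0.344 and NT5E at 3.94 ± 0.128 CPM per kb. The order of the highest 4 depends on the length used. With the length of the canonical transcript, an alternative chosen after seeing the data, CYR61 ranked first in the control at 24.4 ± 1.40 CPM per kb. CRIM1, CTGF and AXL followed. There the ranges of CYR61 and CRIM1 overlapped, as did those of CTGF and AXL. In the knockdown CYR61 was first at 16.6 ± 1.34 and AXL second at 15.5 ± 0.992 CPM per kb, with overlapping ranges, while NT5E and CCDC80 still changed places.

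Genes whose 6 values followed those of CTGF, CYR61 and CCDC80 most closely were sought among 9705 other genes averaging 10 CPM or more. The measure was the root mean square distance over the 6 libraries of log2 CPM centred on the control mean. The nearest to CTGF were TPM4, a cytoskeletal tropomyosin, at a distance of 0.0229, FERMT2, the integrin activator kindlin-2, at 0.0244 and TMEM237, a protein of the ciliary transition zone, at 0.0360. The nearest to CYR61 were SOCS6 (0.0418), CASS4 (0.0427) and SMOC1 (0.0481). The nearest to CCDC80 were DDHD1 (0.0247), ABHD15 (0.0258) and CREB5 (0.0313).

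The 5 YAP target genes outside the CCN family belong, with CTGF and CYR61, to a widely used set of YAP and TAZ targets. Of the 15 other genes of that set, 14 were tested, 2 were lower and 3 were higher, and their median log2 fold change was -0.034. GADD45A, a stress-induced regulator of the cell cycle, fell from 56.8 ± 2.91 to 32.5 ± 1.91 CPM (log2 fold change -0.80, adjusted p = 6.46e-10). LATS2, a Hippo kinase that is itself a target of the coactivators it inhibits, fell from 26.0 ± 1.99 to 16.1 ± 0.779 CPM (log2 fold change -0.69, adjusted p = 3.7e-07). ARHGEF17, IGFBP3 and FJX1 rose by 0.44, 0.35 and 0.31 on the log2 scale. FJX1 fell under the fold threshold, at 0.22, without TAK1 shRNA replicate 1. FOXF2 was not tested, and the other 9 did not pass. These counts came to 14.3% lower and 21.4% higher, against 11.3% and 11.8% of all genes tested.

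**Figure D4:**
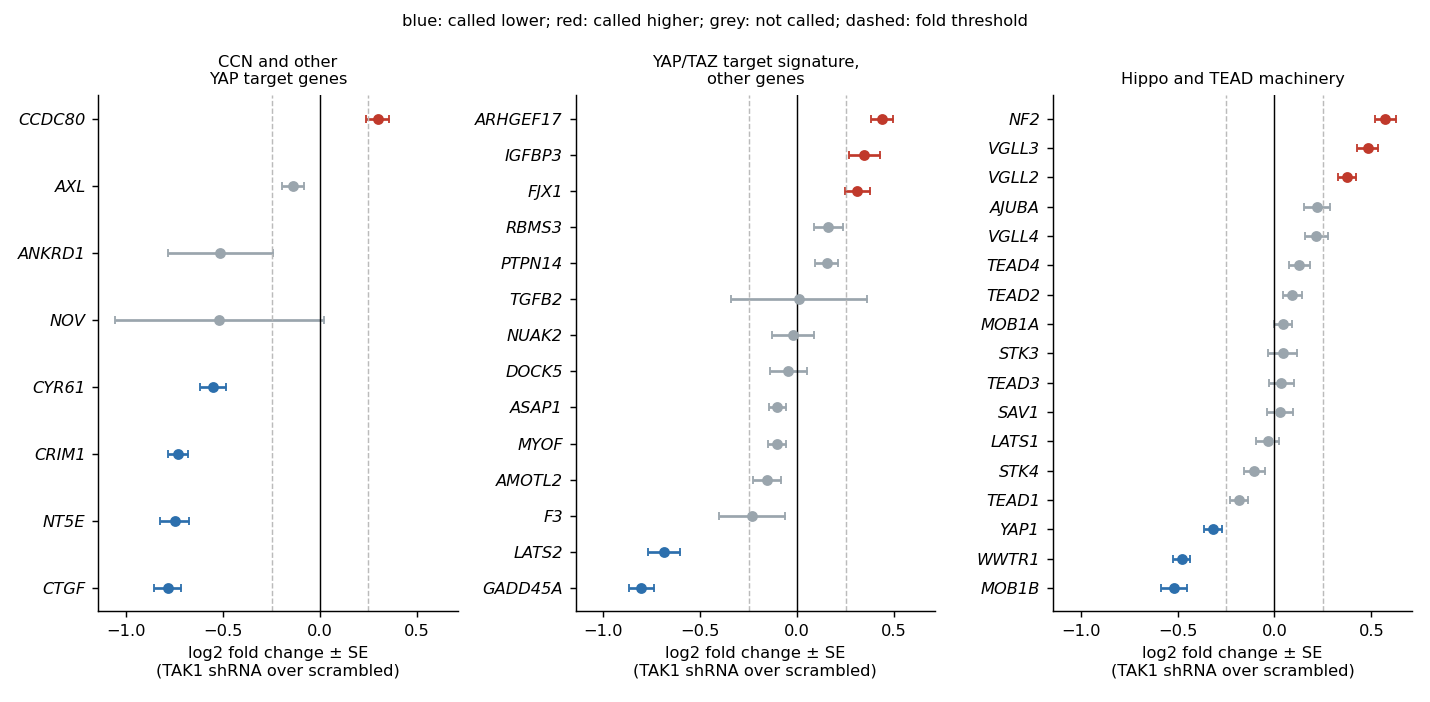
Log2 fold change ± SE, TAK1 shRNA over scrambled shRNA, for the 8 tested genes, the 14 other tested genes of the YAP and TAZ target set and the 17 tested genes of the Hippo and TEAD machinery, blue where lower, red where higher and grey where not passed. CTGF, CYR61, CRIM1, NT5E, GADD45A and LATS2 lie below the fold threshold of -0.25, and CCDC80, ARHGEF17, IGFBP3 and FJX1 lie above 0.25.

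The coactivators themselves were lower in the knockdown. Among 18 genes of the Hippo and TEAD machinery, 17 were tested, 3 were lower and 3 were higher, with a median log2 fold change of 0.041. That was 17.6% in each direction, against 11.3% lower and 11.8% higher among all genes tested. WWTR1 fell from 427 ± 9.22 to 306 ± 8.67 CPM (log2 fold change -0.48, adjusted p = 3.76e-09) and YAP1 from 162 ± 3.91 to 130 ± 5.01 CPM (log2 fold change -0.32, adjusted p = 1.11e-05). MOB1B, an activator of the LATS kinases, fell by 0.52 on the log2 scale. None of the 4 TEAD genes passed: TEAD1 had a log2 fold change of -0.18 (adjusted p = 0.00324, under the fold threshold), TEAD2 0.09, TEAD3 0.04 and TEAD4 0.13. NF2, an upstream activator of the Hippo kinases, rose from 66.6 ± 4.41 to 99.0 ± 0.389 CPM (log2 fold change 0.57, adjusted p = 1.13e-08). VGLL3 and VGLL2, cofactors that bind TEAD proteins in place of YAP, rose by 0.48 and 0.38 on the log2 scale. VGLL3 was at 70.3, 71.9 and 67.8 CPM in the control and 97.7, 94.5 and 101 CPM in the knockdown, without overlap. VGLL1 had 0 counts in every library.

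CTGF and CYR61 are also induced by TGF-beta and by SRF with MRTF, and genes of both programmes were counted from lists. Among all genes tested, 11.3% were lower and 11.8% were higher. Of 16 TGF-beta-induced genes, all tested, 7 were lower (43.8%) and 3 were higher (18.8%), with a median log2 fold change of -0.14. TGFBI, a secreted matrix protein, fell from 161 ± 2.98 to 103 ± 5.18 CPM (log2 fold change -0.64, adjusted p = 2.43e-10), and NEDD9 and COL4A1 fell by 0.39 and 0.36 on the log2 scale. FN1, BHLHE40 and PMEPA1 rose by 0.46, 0.37 and 0.33 on the log2 scale. NEDD9 did not pass without control replicate 2 (adjusted p = 0.0778) or TAK1 shRNA replicate 3 (0.0892), nor PMEPA1 without control replicate 3 (0.135) or TAK1 shRNA replicate 1 (0.115). Of 16 SRF and MRTF targets, 13 were tested, 5 were lower (38.5%) and 2 were higher (15.4%), with a median log2 fold change of -0.19. EGR1, an immediate early transcription factor, fell from 70.6 ± 1.49 to 28.3 ± 2.67 CPM (log2 fold change -1.32, adjusted p = 1.71e-13), and FOS, FHL2 and FLNA fell by 0.68, 0.38 and 0.35 on the log2 scale. TAGLN, the gene of the smooth muscle protein transgelin, rose by 0.75 on the log2 scale, and SRF itself had a log2 fold change of -0.03 (adjusted p = 0.787). MYL9 rose by 0.25, at the edge of the threshold, and was under it without control replicate 2 or 3 or TAK1 shRNA replicate 1 or 2.

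CCN proteins act on cells through integrins, syndecans and LRP receptors. Of 10 receptor genes listed, all tested, 6 were lower and 2 were higher, against 11.3% and 11.8% of all genes, and the median log2 fold change was -0.44. This list too was chosen with earlier results of these data known. ITGB1, the integrin beta 1 chain shared by many matrix receptors, was at 287, 287 and 295 CPM in the control and 109, 115 and 124 CPM in the knockdown (log2 fold change -1.32, adjusted p = 1.08e-15). ITGAV, whose product pairs with several beta chains, fell from 318 ± 9.60 to 213 ± 7.22 CPM (log2 fold change -0.58, adjusted p = 2.98e-10). The syndecan gene SDC4 fell by 0.64 and the Wnt coreceptor gene LRP6 fell by 0.45 on the log2 scale. ITGB3 was scarce, at 1.39 ± 0.141 CPM in the control and 0.316 ± 0.120 CPM in the knockdown (log2 fold change -2.12, SE 0.39, adjusted p = 0.000117). The endocytic receptor gene LRP1 rose by 0.40 on the log2 scale. NOTCH1 rose by 0.25, at the edge of the threshold, and was under it without control replicate 2 or 3 or TAK1 shRNA replicate 1 or 3.

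**Figure D5:**
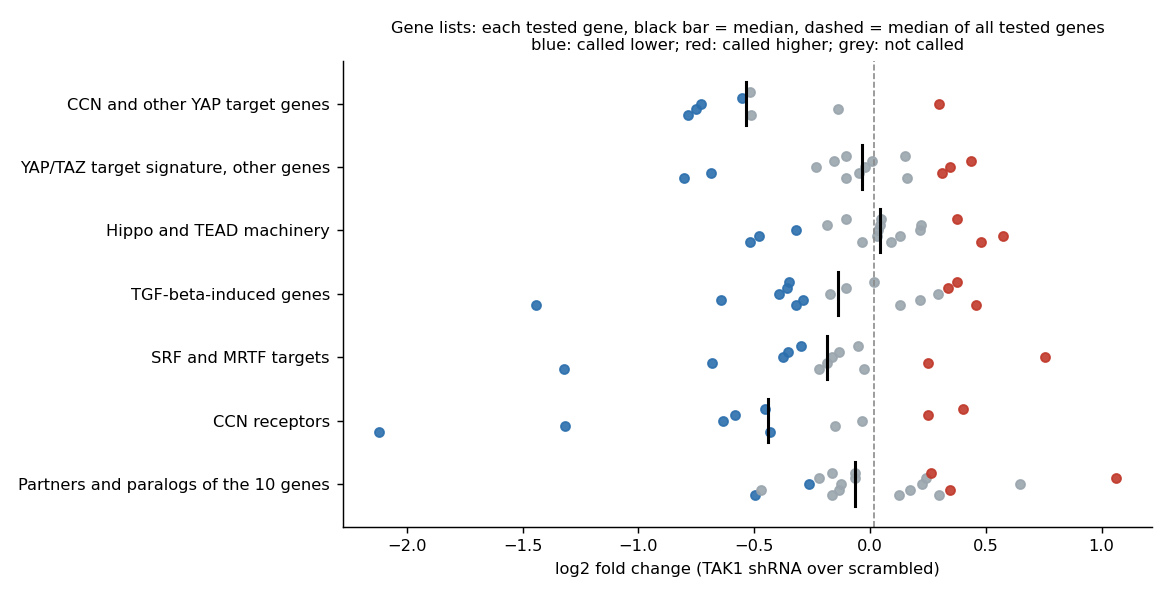
Log2 fold changes of the tested genes of each list, TAK1 shRNA over scrambled shRNA, with 1 point per gene (blue lower, red higher, grey not passed), a bar at the list median and a dashed line at the median of all genes tested. The CCN receptors have the lowest median after the 8 tested genes themselves, -0.44 against -0.54, and the median over all genes tested is 0.018. Genes and lists were chosen with earlier results of these data known.

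Partners and relatives of the individual genes mostly did not pass. Of 21 listed, 19 were tested, 2 were lower and 3 were higher, with a median log2 fold change of -0.063. That was 10.5% lower and 15.8% higher, near the 11.3% and 11.8% of all genes tested. For AXL, neither the sister receptor genes TYRO3 and MERTK (log2 fold change -0.06 each) nor the ligand genes GAS6 (0.13) and PROS1 (-0.47, adjusted p = 0.154) passed. For NT5E, the adenosine receptor gene ADORA1 rose from 81.6 ± 2.69 to 104 ± 6.55 CPM (log2 fold change 0.34, adjusted p = 2.16e-05), and ENTPD1, which produces the AMP that CD73 uses, had a log2 fold change of 0.22 (adjusted p = 0.151). For ANKRD1, the titin gene TTN rose from 35.6 ± 1.86 to 74.3 ± 7.92 CPM (log2 fold change 1.06, adjusted p = 1.64e-11). For CCDC80, both sushi-repeat paralogs went the other way: SRPX2 fell from 70.5 ± 2.73 to 49.9 ± 0.733 CPM (log2 fold change -0.50, adjusted p = 1.66e-07) and SRPX fell by 0.27 on the log2 scale. SRPX did not pass without control replicate 2 or TAK1 shRNA replicate 2 or 3. For CRIM1, BMP4 rose by 0.26 (adjusted p = 0.0442), and of the 6 analyses that left out 1 library it passed only in the one without control replicate 3.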

How the data were processed

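RNA of RD cells was sequenced as paired-end poly(A) libraries. The authors called bases with CASAVA, removed reads with adaptor or low quality, used STAR with GRCh38 for alignment and deposited raw counts of reads per gene. The counting program, the annotation release and the use of strand are not given in the sources used here, so reads from overlapping antisense genes could not be told apart. Rows that share 1 of 177 duplicated names were kept apart.

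Groups came from the labels. The counts were filtered with edgeR's default filter, scaled by TMM and compared with the quasi-likelihood test of edgeR 4.0.16 (R 4.3.3), with Benjamini-Hochberg adjustment over 15935 genes. The biological coefficient of variation was 5.67%. SE was taken as the size of the log2 change over the root of its F statistic, and intervals are at 95%. Ratios were compared with an exact permutation test. In a simulation of this comparison over 15929 genes, edgeR found 199 of 200 changed genes and made 4 false calls. The simulation gave every gene the same spread, and far fewer genes changed than were called here. The changed genes were well counted, with changes of 0.5 or more on the log2 scale. It therefore does not measure the power for scarce genes or for smaller changes. DESeq2 1.42.0, limma-voom 3.58.1, other scalings, filters and fold thresholds, a replicate block and leaving out each library were alternatives. Replicate libraries differed by more than sampling noise. The labels do not say that replicate numbers pair the samples, and the main test did not treat them as pairs.

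Gene models came from GENCODE 44 and promoters from RefSeq. Named from each list were the called genes with the largest change, up to 4 in each direction, plus YAP1, WWTR1, TEAD1 to TEAD4, VGLL3 and WISP3, and a gene that this rule also names is not reported here. Nearest genes were the 3 with the smallest distance. The 10 genes and the lists were chosen with earlier results of these data known.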

Additional observations from a re-analysis of the deposited data

How the results depend on the processing

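Under 14 alternative analyses (DESeq2, limma-voom, 3 other scalings, 2 other filters, a replicate block and leaving out each of 6 libraries), no log2 fold change of the 8 tested genes changed sign. CTGF, CYR61, CRIM1 and NT5E passed in all 14, and NOV, ANKRD1 and AXL in none of those that tested them. Of the 41 list genes called, 32 kept their call in all 14. The median over all genes moved from 0.018 with TMM to 0.066 with library size alone, so no scaling moved it by over 0.1.

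The fold threshold changed the counts most. At 0.5 on the log2 scale, 0 of the 8 genes were higher, as were 0 of the other YAP and TAZ targets, 0 of the TGF-beta-induced genes and 0 of the CCN receptors. With all 6 libraries the lower calls held for 4 of the 8 genes and 2 of the other YAP and TAZ targets, as before, and 4 CCN receptors were lower. Of these, CYR61 came under 0.5 without TAK1 shRNA replicate 3, with a log2 fold change of -0.498. At that threshold the Hippo and TEAD machinery had 1 lower and 1 higher, the TGF-beta list 2 lower, the SRF and MRTF list 2 lower and 1 higher, and the partners 0 lower and 1 higher, among 680 genes lower and 735 higher in all. With no fold threshold, 2734 genes were lower and 2569 higher in all. Of the lists, 9 SRF and MRTF targets were then lower and 5 genes of the machinery were higher. Library size alone also gave 5 higher in the machinery, and with it or the upper quartile 1 partner was lower. Over all genes, library size alone gave 1404 lower and 2376 higher, and the upper quartile 1662 and 2027. With TMM these counts were 1805 and 1879. DESeq2, RLE scaling and no filter on low counts each gave 1 SRF and MRTF target and 1 CCN receptor higher. Over all genes they gave 1508, 1818 and 1809 higher.

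Leaving out 1 library gave 0 to 1 of the 8 genes higher, 1 to 2 SRF and MRTF targets higher, 1 to 2 CCN receptors higher and 1 to 2 partners lower. Over all genes it gave 1675 to 1931 lower and 1582 to 1810 higher. With the canonical transcript length the order of control levels was CYR61 in place 1, CRIM1 2, CTGF 3 and AXL 4. The ranges of CYR61 and CRIM1 overlapped, as did those of CTGF and AXL. With the TEAD word restricted to GGAATGT or GGAATGC, 1 of the 5 genes held it, against 8.06% of all genes with a promoter. Of the 11 other YAP and TAZ targets with a promoter, 5 held that restricted word.

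Samples with the same replicate number had correlations of their deviations from the group means of 0.0919, 0.0563 and 0.0353. Those of samples with different numbers ran from -0.0988 to 0.0492. All these values are small, and they do not settle whether the numbers mark pairs. With the replicate block, 4 of the 8 genes were lower and 1 higher, as without it. The adjusted p of AXL was then 0.0181, with a log2 fold change still under the fold threshold.

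Depth limited NOV, WISP1 and WISP2, whose counts lay between 0 and 13 per library.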
